A study of Mus musculus with 6 samples.

Results

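The vacuolar proton pump (V-ATPase) acidifies lysosomes, phagosomes and endosomes by coupling ATP hydrolysis to the movement of protons across the membrane. Its cytosolic sector, V1, binds and hydrolyses ATP, and its membrane sector, V0, carries the protons. The sectors can come apart and be put together again, and several subunits exist as isoforms that differ between tissues. In macrophages the pump serves the digestion of engulfed material, and in osteoclasts the same isoforms acidify the space at the bone surface.

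The genes described here are 10 genes of this pump, taken by their symbol from the 54532 genes of the expression table. Of these, 4 encode subunits of V0 (Atp6v0a1, Tcirg1, Atp6v0d1 and Atp6v0d2) and 6 encode subunits of V1 (Atp6v1a, Atp6v1b2, Atp6v1c1, Atp6v1d, Atp6v1e1 and Atp6v1h). All 10 were among the 12755 genes that passed the filter on low values (at least 1 TPM in at least 2 libraries), and all lay above the 81st percentile of mean TPM among those genes. TPM is a level of transcript per length, scaled so that all genes sum to the same total in every library.

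Bone-marrow-derived macrophages (BMDMs) of wildtype C57BL/6 mice, grown with medium conditioned by L929 cells as the source of growth factor, were sequenced as poly-A RNA in 3 groups of 2 libraries, A and B. The groups were untreated cells, cells given 100 ng/ml lipopolysaccharide (LPS), the bacterial cell-wall component, for 2 h, and cells given 5 mM metformin, the diabetes drug, for 6 h and then the same LPS (Met + LPS). There was no group with metformin alone, so metformin was compared only in the presence of LPS. The cells were seeded in duplicate and the labels name no separate mice, so that the p-values measure the spread between these libraries, which may be technical.

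All 8 macrophage markers examined were expressed in every library, among them Adgre1, Csf1r and Cd68. Their summed level was 44621 to 46599 TPM in untreated, 37412 to 37903 TPM in LPS and 30877 to 30948 TPM in Met + LPS libraries. Lyz2 alone was at 33981 and 35844, 26974 and 26696, and 21203 and 21381 TPM in the same order. In LPS against untreated cells, 2 of the 8 were called higher and 5 lower in TPM, beside 16.2% and 60.1% of all tested genes. After the median-ratio scaling described below, 5 were higher and 1 lower, beside 30.6% and 27.6%. Of the 8, 6 were called lower and none higher in Met + LPS than in LPS cells, beside 18% and 14.5% of all tested genes. Fcgr1 with a log2 fold change of -1.14 and Mertk with -0.61 were at the lower end. The level of Itgam, 1 of the 6, is uncertain, since 68.7% of its exons overlap with those of Gm49368. The part of these shifts in the results below was not tested. Markers of B cells, fibroblasts and erythroid cells stayed below 1 TPM, and of those of T cells and dendritic cells only Cd4 (at most 6.78 TPM) and Zbtb46 (at most 1.53 TPM) reached it. Since Tcirg1 and Atp6v0d2 are known from osteoclasts, markers of that cell type were read as well. Their summed level was 71.1 to 72.6 TPM in untreated, 97.6 to 100.1 TPM in LPS and 81.3 to 82.4 TPM in Met + LPS libraries, and 4 of 7 reached 1 TPM. Acp5 rose from 7.71 and 7.98 TPM in untreated to 42.2 and 41.6 TPM in LPS cells (log2 fold change 2.28) and was at 30.5 and 30.8 TPM in Met + LPS cells, Nfatc1 lay between 29.0 and 38.0 TPM, Ctsk between 16.2 and 25.1 TPM and Dcstamp between 1.87 and 4.54 TPM in all libraries, and Calcr, Ocstamp and Mmp9 stayed below 1 TPM. The part of these markers in the results was not tested. The summed level of 5 neutrophil markers was 27.2 to 30.9, 24.4 to 25.8 and 40.2 to 42.0 TPM in the same order, with Ly6g at 0.140 TPM or less, and its part in the results was not tested. In such bulk samples, fewer cells of a type and less RNA per cell cannot be told apart.

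The median of all tested genes lay 0.48 lower on the log2 scale in LPS than in untreated libraries and 0.48 lower in Met + LPS than in untreated libraries, but only 0.03 lower in Met + LPS than in LPS libraries. A fall of that size against untreated cells is therefore what the middle gene of the table shows in TPM. Each comparison with untreated cells is given below in TPM as deposited and again after median-ratio scaling, which divides each library by the median ratio of its genes to their mean level.

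In untreated cells Atp6v1a, the catalytic A subunit that hydrolyses ATP, had the highest level of the 10 genes with 897.2 and 900.7 TPM in libraries A and B. It was followed by Tcirg1, the a3 isoform of the proton-conducting subunit a, Atp6v1b2, the B subunit that alternates with A in the head of V1, Atp6v0d1 and Atp6v0d2, the isoforms of the subunit d that links the rotor to the membrane ring, and Atp6v0a1. Atp6v1c1, which clamps the sectors together, Atp6v1e1, part of the peripheral stalks, Atp6v1d, part of the central rotor, and Atp6v1h, which regulates the coupling of the sectors, had the lowest levels. The mean levels ran from 898.9 TPM for Atp6v1a down to 61.4 TPM for Atp6v1h, and no neighbours in this order overlapped between libraries. After LPS the order below the leading pair changed. Atp6v0d1 and Atp6v1b2 overlapped there, as did Atp6v1e1 and Atp6v0d2. In Met + LPS cells Atp6v0d2 stood in the third place and overlapped with Atp6v0d1.

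The summed level of the 10 genes was 4099 and 4156 TPM in untreated, 2980 and 2948 TPM in LPS and 3636 and 3552 TPM in Met + LPS libraries. The 3 groups did not overlap in this sum, which is in TPM as deposited and depends on the scale. After median-ratio scaling, the median log2 fold change of the 10 genes against untreated cells was 0.03 in LPS and 0.41 in Met + LPS.

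**Figure D1:**
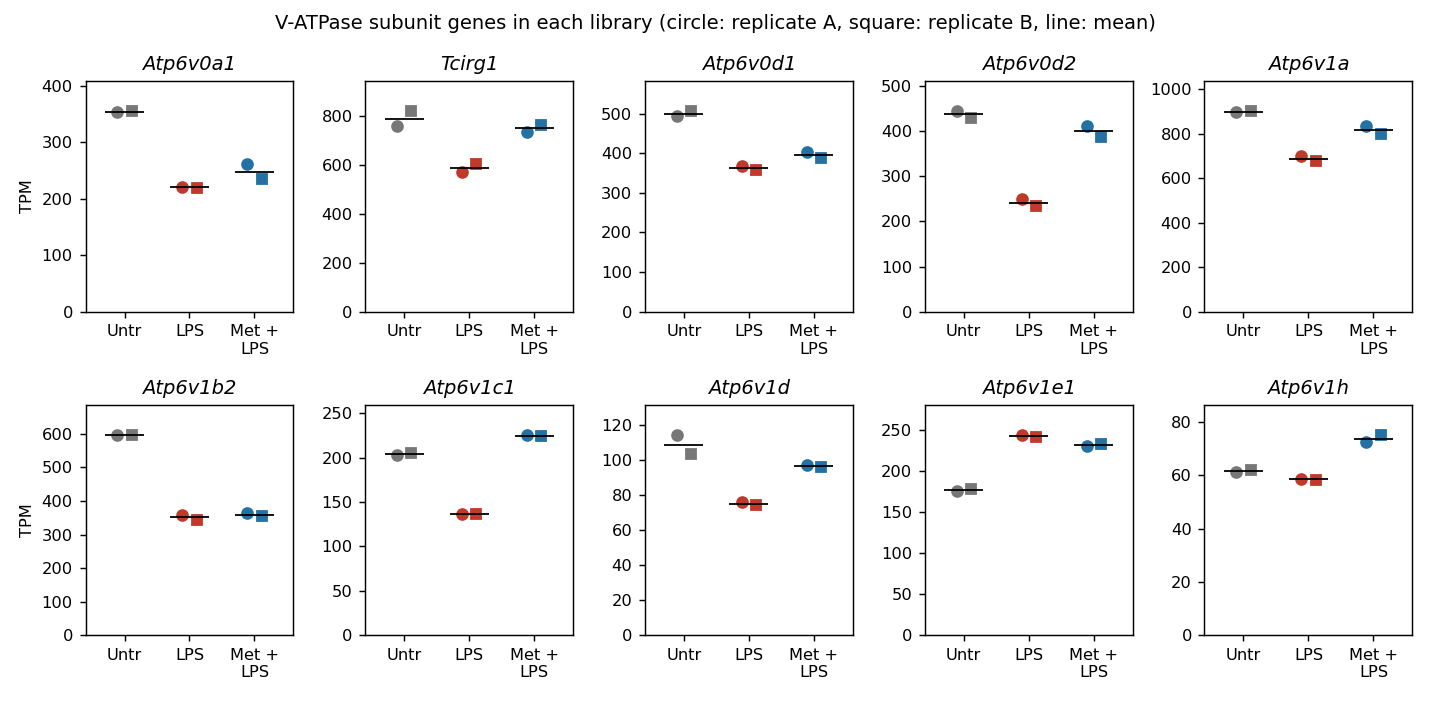
TPM (linear axis from 0) of the 10 V-ATPase genes in the untreated, LPS and Met + LPS libraries, with circles for replicate A, squares for replicate B and lines for the mean of 2 libraries. Apart from Atp6v1b2 and Atp6v1e1, every gene is lower in both LPS libraries than in all libraries of the other groups. The log2 fold change from LPS to Met + LPS is largest for Atp6v0d2 and Atp6v1c1. Atp6v1b2 is low in both groups given LPS, and Atp6v1e1 is high in both. TPM are as deposited, and the median of all genes is 0.48 lower (log2) in both groups given LPS.

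The promoters are shown for the 2 genes in which the palindrome TCACGTGA was found, an 8-base word that holds the E-box CACGTG and resembles the element bound by TFEB and its relatives, which regulate lysosomal genes. RefSeq promoter windows (250 bases before to 50 bases after the start site, GRCm38.p6) were at hand for 6 of the 10 genes, and Atp6v0d2, Atp6v1b2, Atp6v1c1 and Atp6v1h had none. Both words are their own reverse complement, so that the search covers both strands. TCACGTGA stood in 2 of the 8 windows of the 6 genes, those of Atp6v0d1 and Atp6v1a, beside 0.974% of all 32851 windows. CACGTG stood in the same 2 windows, beside 7.15% of all windows. A match is a description of the letters and not evidence of binding. Printed are 200 bases before to 20 bases after the RefSeq start site, 5′ to 3′ on the minus strand, with the palindrome in capitals. In Atp6v0d1 (chr8:105566045-105566264) its first base lies at -4 from the start site, and in Atp6v1a (chr16:44139240-44139459) at -132. The annotation of the expression table lets Atp6v1a reach from 44085402 to 44139705 on that chromosome, so that this RefSeq start lies inside the gene as annotated there.
Atp6v0d1: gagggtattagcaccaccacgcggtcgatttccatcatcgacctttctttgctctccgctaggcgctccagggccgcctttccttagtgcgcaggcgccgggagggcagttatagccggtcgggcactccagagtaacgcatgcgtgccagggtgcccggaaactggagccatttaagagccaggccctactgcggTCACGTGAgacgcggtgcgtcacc
Atp6v1a: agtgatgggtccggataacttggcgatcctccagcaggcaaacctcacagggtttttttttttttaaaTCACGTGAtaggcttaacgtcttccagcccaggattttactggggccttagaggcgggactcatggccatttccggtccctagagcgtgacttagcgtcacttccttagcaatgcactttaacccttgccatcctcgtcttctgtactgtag

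The first comparison asked how LPS alone changed the pump's transcripts. In TPM as deposited, 8 of the 10 genes fell, Atp6v1e1 rose and Atp6v1h did not pass the test (limma on log2(TPM + 1), Benjamini-Hochberg adjusted p under 0.01). Of all tested genes, 60.1% were called lower and 16.2% higher, and the median log2 fold change was -0.49 over the 10 genes and -0.48 over all genes. The fall in TPM was thus that of the middle gene for the group as a whole. After median-ratio scaling 2 of the 10 genes were called lower (Atp6v0d2 and Atp6v1b2) and 3 higher (Atp6v1e1, Atp6v1h and Atp6v1a), beside 27.6% lower and 30.6% higher among all genes. None of the 10 passed the study's cut-off of 2 on the log2 scale, which 6.08% of all genes passed in either direction and 3.72% upwards. The libraries of the groups did not overlap for 1 gene that was higher and 9 that were lower after LPS, beside 20.1% and 71.5% of all genes.

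Atp6v0d2 (ENSMUSG00000028238, chr4:19876841-19922605 in GRCm38), the d isoform of osteoclasts and macrophages, was at 443.9 and 429.8 TPM in untreated and 248.4 and 234.3 TPM in LPS cells. The LPS libraries were both far below the untreated pair. Its log2 fold change of -0.85 (SE 0.05, limma adjusted p = 5.4e-06) was the lowest of the 10 genes, and it was -0.33 after median-ratio scaling (adjusted p = 0.00069). Atp6v1b2 was at 596.5 and 596.2 TPM in untreated and 359.2 and 343.3 TPM in LPS cells. It fell by 0.76 on the log2 scale (SE 0.03, limma adjusted p = 2.6e-06), and by 0.24 after median-ratio scaling (adjusted p = 0.00075).

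Atp6v1e1 went the other way. It was at 175.4 and 177.7 TPM in untreated and 244.2 and 241.7 TPM in LPS cells, so that both LPS libraries lay above both untreated ones. Its log2 fold change was 0.46 (SE 0.03, limma adjusted p = 1.2e-05), and 0.98 after median-ratio scaling. Atp6v0d2, Atp6v1b2 and Atp6v1e1 were the 3 of the 9 called genes whose call held under all 15 alternative settings.

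The 6 remaining called genes fell by between 0.39 (Atp6v1a) and 0.68 (Atp6v0a1) on the log2 scale in TPM, and each lost this call on at least 1 other scale. Atp6v0a1, the a1 isoform, was at 353.7 and 355.3 TPM in untreated and 221.0 and 219.9 TPM in LPS cells. Its fold change shrank from -0.68 to -0.16 after median-ratio scaling (adjusted p = 0.032). Tcirg1 was at 759.6 and 820.0 TPM in untreated and 570.3 and 604.3 TPM in LPS cells. Its log2 fold change of -0.43 (SE 0.05, limma adjusted p = 0.00020) turned to 0.10 after that scaling (adjusted p = 0.12). Atp6v0d1 likewise turned from -0.46 to 0.06 and Atp6v1a from -0.39 to 0.14. Atp6v1c1 and Atp6v1d, at -0.57 and -0.53 in TPM, came to -0.05 and 0.00 after scaling. Atp6v1h did not pass the test in TPM, at 61.0 and 61.8 in untreated and 58.7 and 58.2 in LPS cells (log2 fold change -0.07, 95% interval -0.16 to 0.02, limma adjusted p = 0.11), and it was called higher after scaling (0.45).

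**Figure D2:**
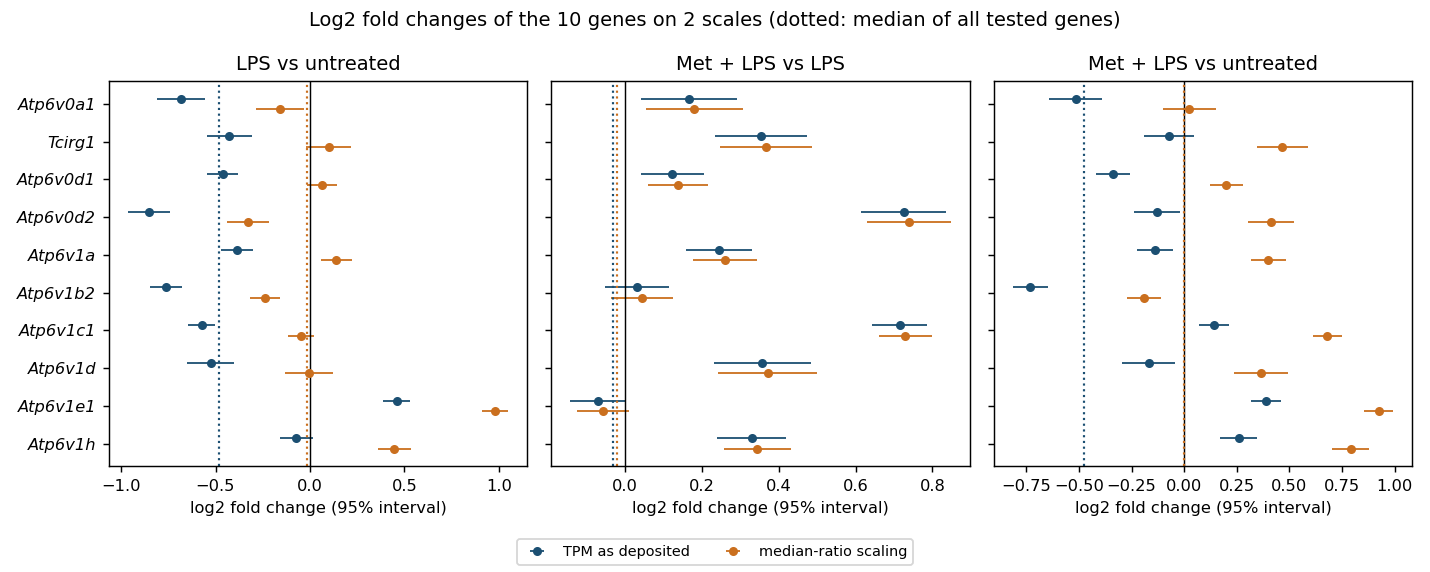
Log2 fold changes with 95% intervals of the 10 genes in LPS vs untreated, Met + LPS vs LPS and Met + LPS vs untreated, for TPM as deposited (blue) and after median-ratio scaling (orange), with dotted lines at the median of all 12755 tested genes. For Met + LPS vs LPS the scales nearly coincide, and Atp6v0d2 (0.72) and Atp6v1c1 (0.71) stand to the right of the other genes. In both comparisons with untreated cells the scaling moves every gene to the right, and several change sign.

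The second comparison asked what metformin before LPS changed relative to LPS alone. Of the 10 genes, 6 rose and none fell, while 14.5% of all tested genes were called higher and 18.0% lower. The median log2 fold change was 0.29 over the 10 genes and -0.03 over all tested genes. The libraries of the groups did not overlap for 8 genes that were higher and 1 that was lower in Met + LPS, beside 33.8% and 40.0% of all genes. The 6 that rose were Atp6v0d2 and Tcirg1 of V0 and Atp6v1a, Atp6v1c1, Atp6v1d and Atp6v1h of V1, and the counts were the same after median-ratio scaling (6 higher and 0 lower, beside 15.6% and 17.4%). Past the study's cut-off of 0.7 on the log2 scale were 2 genes, Atp6v0d2 and Atp6v1c1, beside 8.28% of all genes in either direction and 4.19% upwards. Without LPS library B or without Met + LPS library A, Atp6v0d2 came to 0.68, which left 1 gene past the cut-off.

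Of the V0 genes, Atp6v0d2 rose from 248.4 and 234.3 TPM in LPS to 412.1 and 387.0 TPM in Met + LPS cells. Both Met + LPS libraries lay below the untreated pair (443.9 and 429.8 TPM) and far above the LPS pair. The increase was 65.5% of the LPS mean, with a log2 fold change of 0.72 (SE 0.05, limma adjusted p = 6.4e-05). Tcirg1 rose from 570.3 and 604.3 to 735.8 and 764.7 TPM, a log2 fold change of 0.35 (SE 0.05, limma adjusted p = 0.0016). Here the Met + LPS libraries overlapped with the untreated range. The call of Tcirg1 was lost without LPS library A (adjusted p = 0.011) and without Met + LPS library B (adjusted p = 0.015).

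The other isoforms of the same V0 subunits had smaller fold changes. Atp6v0d1, at 367.5 and 358.0 TPM in LPS and 402.3 and 388.4 TPM in Met + LPS cells, had a log2 fold change of 0.12 (95% interval 0.04 to 0.21, limma adjusted p = 0.024). Atp6v0a1, at 221.0 and 219.9 against 261.6 and 234.4 TPM, had one of 0.17 (95% interval 0.04 to 0.29, limma adjusted p = 0.037). Neither passed the threshold, though their libraries did not overlap, and Atp6v0a1 was called without Met + LPS library B (adjusted p = 0.0051). Atp6v0a1 was also called by voom on the recovered reads (adjusted p = 0.0021), and both genes were with TMM scaling of those reads (adjusted p = 0.00051 for Atp6v0a1 and 0.0028 for Atp6v0d1).

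Of the V1 genes, Atp6v1c1 (ENSMUSG00000022295, chr15:38661933-38692446) had the largest fold change. It was at 137.0 and 136.2 TPM in LPS and 225.6 and 224.0 TPM in Met + LPS cells, so that both Met + LPS libraries exceeded the untreated pair (202.8 and 204.7 TPM) as well. Its log2 fold change was 0.71 (SE 0.03, limma adjusted p = 1.6e-05). Atp6v1h rose from 58.7 and 58.2 to 72.3 and 75.1 TPM, a log2 fold change of 0.33 (SE 0.04, limma adjusted p = 0.00061). Its Met + LPS libraries too were above all untreated ones. The calls of Atp6v0d2, Atp6v1c1 and Atp6v1h held under all 15 alternative settings.

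Atp6v1a rose from 698.4 and 677.4 to 835.3 and 796.0 TPM, a log2 fold change of 0.25 (SE 0.04, limma adjusted p = 0.0018). Atp6v1d, the rotor subunit, rose from 75.8 and 74.5 to 97.0 and 96.0 TPM, one of 0.36 (SE 0.05, limma adjusted p = 0.0019). Both stayed below their untreated levels, 897.2 and 900.7 TPM for Atp6v1a and 114.3 and 103.2 TPM for Atp6v1d. These calls were narrow. The adjusted p of Atp6v1a was 0.010 to 0.012 without untreated library A, untreated library B, LPS library B or Met + LPS library A, and that of Atp6v1d was 0.012 to 0.015 when any 1 of the 4 LPS or Met + LPS libraries was left out. With 1 library left out, 4 or 5 of the 10 genes were called.

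The remaining V1 genes, Atp6v1b2 and Atp6v1e1, did not pass the test. Atp6v1b2 was at 359.2 and 343.3 TPM in LPS and 363.8 and 353.9 TPM in Met + LPS cells, and these libraries overlapped. The log2 fold change of 0.03 had a 95% interval of -0.05 to 0.11 (limma adjusted p = 0.50). Atp6v1e1 was at 244.2 and 241.7 against 230.1 and 232.4 TPM (log2 fold change -0.07, 95% interval -0.14 to 0.00, limma adjusted p = 0.091). Atp6v1a and Atp6v1b2, the partners in the head of V1, were therefore called differently in this comparison. The difference between their fold changes was not tested.

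The third comparison set Met + LPS against untreated cells and shares its libraries with the other comparisons. In TPM as deposited 3 genes were higher (Atp6v1c1, Atp6v1e1 and Atp6v1h) and 4 lower (Atp6v0a1, Atp6v0d1, Atp6v1a and Atp6v1b2), beside 16.3% higher and 58.8% lower among all tested genes. The libraries did not overlap for 3 that were higher and 6 that were lower, beside 21.7% and 69.1% of all genes. After median-ratio scaling 8 were higher and 1 lower, beside 33.4% and 29.7%. The median log2 fold change of the 10 genes was -0.13 in TPM, where that of all genes was -0.48, and 0.41 after scaling, where that of all genes was 0.00. Relative to the middle gene of the table, most of the 10 genes thus stood higher in Met + LPS than in untreated cells.

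Atp6v1b2 was called lower on both scales, with 596.5 and 596.2 TPM in untreated and 363.8 and 353.9 TPM in Met + LPS cells. It fell by 0.73 on the log2 scale (SE 0.03, limma adjusted p = 3.0e-06) and by 0.19 after scaling (adjusted p = 0.0019). Atp6v1e1 was higher on both scales, by 0.39 (SE 0.03, limma adjusted p = 2.4e-05) and 0.93. Atp6v1h was higher by 0.26 (SE 0.04, limma adjusted p = 0.00056) and 0.79, and Atp6v1c1 by 0.14 (SE 0.03, limma adjusted p = 0.0036) and 0.68. Atp6v0d2, Tcirg1 and Atp6v1d did not pass the test in TPM, with log2 fold changes of -0.13, -0.07 and -0.17, and turned to 0.41, 0.47 and 0.37 after scaling, where all 3 were called higher. The calls of Atp6v1b2, Atp6v1e1 and Atp6v1h held under all 15 alternative settings. Leaving out either untreated or either Met + LPS library ended the call of Atp6v1c1 (adjusted p 0.013 to 0.023), and leaving out any library except Met + LPS A ended that of Atp6v1a (adjusted p 0.011 to 0.052). Atp6v1d was called lower without untreated library B (adjusted p = 0.0050) and by voom on the recovered reads (adjusted p = 0.0057), and Atp6v0d2 with the replicate letter as a block (adjusted p = 0.0087).

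The share of an isoform within its subunit is the same under every scaling of a library. Atp6v0d2 made up 47.3% and 45.9% of the summed TPM of Atp6v0d1 and Atp6v0d2 in untreated cells, 40.3% and 39.6% after LPS and 50.6% and 49.9% in Met + LPS cells. The 3 groups did not overlap. From untreated to LPS cells the share fell by 6.67 points, and it was 10.3 points higher in Met + LPS than in LPS cells. Tcirg1 made up 66.5% and 68.0% of the summed TPM of the 4 genes of subunit a in untreated cells, 70.1% and 71.3% after LPS and 72.2% and 74.9% in Met + LPS cells, a step of 3.48 points and another of 2.85 points. The second step was 1.48 points without Met + LPS library B and 4.23 points without Met + LPS library A. The two-sided exact permutation test gave p = 0.33 for each of these differences, which is the smallest that 2 libraries against 2 can give.

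**Figure D3:**
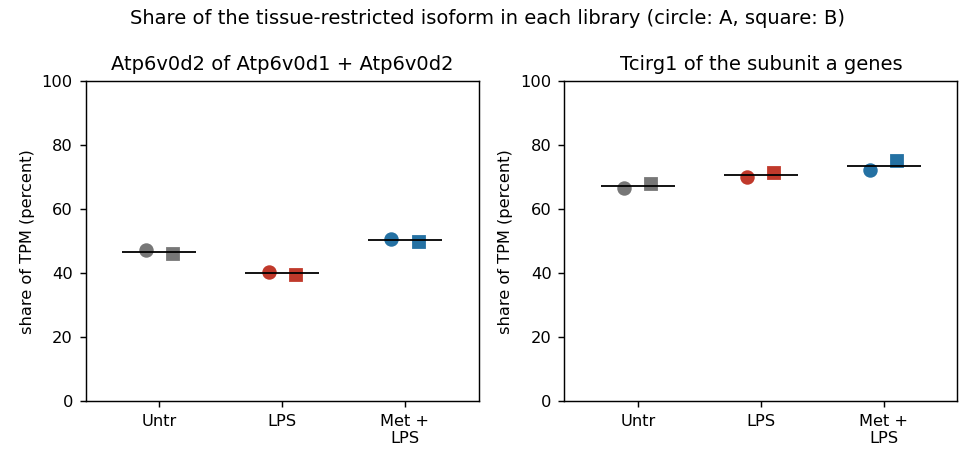
Share of summed TPM, in percent from 0 to 100, of Atp6v0d2 among the subunit d genes (left) and of Tcirg1 among the 4 subunit a genes (right), with circles for replicate A, squares for replicate B and lines for the mean of 2 libraries. The share of Atp6v0d2 is near 40% in LPS and near 50% in Met + LPS libraries, and that of Tcirg1 lies between 66.5% and 74.9% in all.

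The rest of the pump was read from a list of 17 other subunit and accessory genes, of which 9 were tested. Atp6v0a4, Atp6v1b1, Atp6v1e2, Atp6v1g3 and Atp6ap1l, most of them isoforms of kidney, testis or other tissues, were listed at 0 in every library, and Atp6v0e2 and Atp6v1c2 stayed below 1 TPM. Rnasek reached at most 1.26 TPM, but its exons overlap with those of Gm21988, so that its level is uncertain. All 9 tested genes fell in LPS against untreated cells in TPM, beside 60.1% called lower among all tested genes. After median-ratio scaling 6 of them were called higher and none lower, beside 30.6% and 27.6%. The 5 with the largest change in TPM were Atp6v1g2 (-0.64 in TPM, -0.25 after scaling), Atp6v0a2 (-0.40 and 0.11), Atp6ap1 (-0.36 and 0.17), Atp6v0c (-0.35 and 0.17) and Atp6v1g1 (-0.33 and 0.19). After scaling, Atp6ap2 (0.37), Atp6v0b (0.31), Atp6v1f (0.29) and Atp6v0e (0.28) had the largest changes and were called higher. Exons of Atp6v0b overlap with the antisense gene Gm12841 over 11.8% and those of Atp6v0a2 with the antisense gene 4930404A12Rik over 9.86%. Reads of such pairs may not have been told apart. The median log2 fold change of the 9 genes in TPM was -0.33, against -0.48 over all genes. Between 4 and 8 of the 9 calls were made with 1 library left out (4 without untreated B, 5 without untreated A or LPS B), and Atp6v1g2, at 4.04 TPM or less, lost its call when any 1 of the untreated or LPS libraries was left out.

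In Met + LPS against LPS 2 of the 9 genes rose and none fell, beside 14.5% higher and 18.0% lower among all tested genes. Atp6v1g1, a stalk subunit of V1, went from 414.0 and 432.8 to 550.4 and 553.9 TPM (log2 fold change 0.38, SE 0.04, limma adjusted p = 0.00044). Against the untreated 549.1 and 518.8 TPM it was not called in TPM (log2 fold change 0.05, limma adjusted p = 0.29). It was called higher there after median-ratio scaling (0.59). Atp6ap2, an accessory protein also known as the prorenin receptor, went from 398.5 and 380.8 to 449.0 and 452.9 TPM (0.21, SE 0.03, limma adjusted p = 0.0030). The call of Atp6ap2 was lost when any 1 library other than LPS A was left out (adjusted p 0.012 to 0.020). The median log2 fold change of the 9 genes was -0.02, close to the -0.03 of all tested genes. Atp6v0c, which forms the proton-carrying ring, was at 111.3 and 106.6 TPM in LPS and 116.6 and 116.4 TPM in Met + LPS cells and was not called. Against untreated cells 7 of the 9 were higher in Met + LPS after scaling, beside 33.4% of all tested genes. In TPM 7 were lower, beside 58.8% of all tested genes. Atp6v1g2, Atp6v0a2, Atp6ap1, Atp6v1f and Atp6v0c had the largest change in TPM, from -0.83 to -0.26. With 1 library left out, 3 to 7 were called lower. Without untreated library A there were 3, and without untreated library B or Met + LPS library A there were 4.

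**Figure D4:**
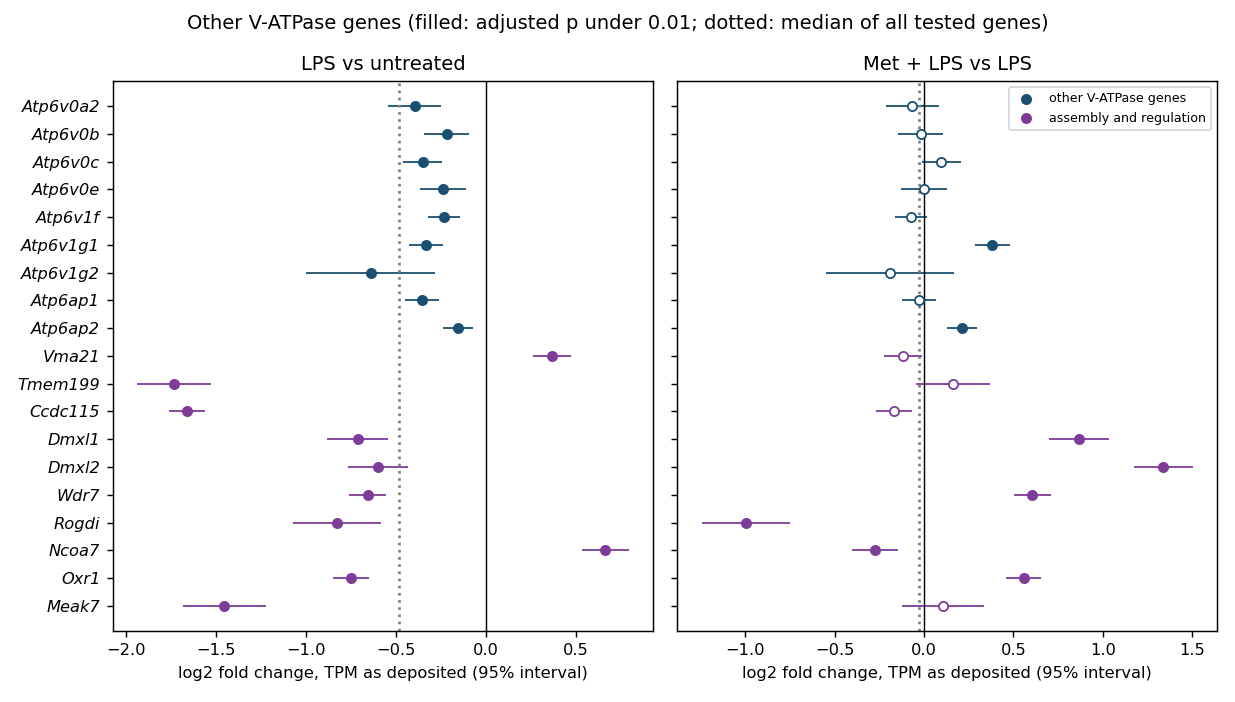
Log2 fold changes in TPM as deposited, with 95% intervals, of 9 other V-ATPase genes (blue) and 10 assembly and regulatory genes (purple) in LPS vs untreated and Met + LPS vs LPS, filled where the limma adjusted p was under 0.01, with a dotted line at the median of all tested genes. Dmxl2 (1.34) lies farthest to the right in Met + LPS vs LPS and Rogdi (-0.998) farthest to the left. In LPS vs untreated most of the blue points lie to the right of the dotted line at -0.48 and turn positive after median-ratio scaling.

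A list of 11 genes for the assembly and regulation of the pump held 10 that were tested, and Tldc2 stayed below 1 TPM. In Met + LPS against LPS 4 rose and 2 fell, beside 14.5% higher and 18% lower among all tested genes. The counts were the same after median-ratio scaling, beside 15.6% and 17.4%. The 3 large partners of the RAVE-like complex, which joins V1 to V0, were among those that rose. Dmxl2 went from 5.79 and 5.81 to 16.8 and 15.6 TPM (log2 fold change 1.34, SE 0.07, limma adjusted p = 3.1e-05), Dmxl1 from 20.5 and 19.8 to 40.1 and 35.1 TPM (0.87) and Wdr7 from 55.5 and 55.7 to 88.1 and 82.3 TPM (0.61). Rogdi, a further protein of that complex, went the other way, from 11.4 and 13.8 to 5.36 and 6.22 TPM (-0.998, SE 0.10, limma adjusted p = 0.00042), though 10.2% of its exons overlap with the antisense gene Gm42477, whose reads may not have been told apart. Oxr1, a TLDc-domain protein that acts on the assembled pump, rose from 31.1 and 31.2 to 47.4 and 45.3 TPM (0.56). These 5 calls held under all 15 alternative settings, and that of Ncoa7, which fell, did not. In untreated cells Dmxl2 was at 9.67 and 8.93, Dmxl1 at 34.5 and 32.8 and Wdr7 at 88.8 and 87.8 TPM. These 3 were called lower after LPS in TPM but not after scaling. Against untreated cells, Met + LPS was called higher in TPM for Dmxl2 but not for Dmxl1 and Wdr7. After scaling all 3 were called higher there.

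In LPS against untreated cells 2 of the 10 rose and 8 fell in TPM, beside 16.2% higher and 60.1% lower among all tested genes. After scaling 2 rose and 4 fell, beside 30.6% and 27.6%. Tmem199 and Ccdc115, which help V0 to assemble in the endoplasmic reticulum, fell on both scales. Vma21 of the same list went the other way, from 36.5 and 34.5 TPM in untreated to 45.5 and 46.6 TPM in LPS cells. Its log2 fold change was 0.37 (limma adjusted p = 0.00022), and 0.88 after scaling. Tmem199 went from 51.0 and 49.6 to 14.8 and 14.1 TPM (log2 fold change -1.73, and -1.22 after scaling), and Ccdc115 from 61.8 and 62.1 to 18.9 and 18.9 TPM (-1.66 and -1.15). Meak7, listed under its older symbol Tldc1, fell by 1.45, Rogdi by 0.83 and Oxr1 by 0.75 on the log2 scale in TPM. After scaling the call of Rogdi was lost (adjusted p = 0.029). Metformin before LPS left Tmem199 at 14.8 and 17.9 TPM and Ccdc115 at 16.5 and 16.9 TPM, and neither was called against LPS alone. Against untreated cells 3 of the 10 were higher and 5 lower in Met + LPS in TPM, beside 16.3% and 58.8% of all tested genes. After scaling 6 were higher and 4 lower, beside 33.4% and 29.7%.

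Transcripts of the TFEB family, the transcription factors named above, moved in opposite directions. Tfeb was at 53.1 and 52.6 TPM in untreated, 4.70 and 4.13 TPM in LPS and 11.6 and 9.57 TPM in Met + LPS cells. It fell by 3.31 on the log2 scale after LPS (limma adjusted p = 3.4e-07) and was 1.09 higher in Met + LPS than in LPS cells (limma adjusted p = 0.00023), which left it below the untreated level. Mitf and Tfec rose after LPS by 2.31 and 3.79, and by 2.82 and 4.29 after scaling, where the change of Tfeb was -2.83. Tfe3 changed by -0.74 in TPM (limma adjusted p = 3.2e-05) and by -0.22 after scaling, where its call was lost (limma adjusted p = 0.013). In Met + LPS against LPS, Mitf changed by -0.18 (limma adjusted p = 0.0080), a call that was lost when any 1 library was left out and after median-ratio scaling (adjusted p = 0.010), and Tfec and Tfe3 changed by -0.17 and -0.12 without passing the test. Transcript levels say nothing of the location or activity of these proteins.

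For Atp6v0d2, the genes with the most similar pattern over the 6 libraries were sought among 7474 genes with a mean of at least 10 TPM, by the root mean square difference of log2(TPM + 1) after centring each gene. Atp6v0d2 was most like Slc38a7 (0.03), a lysosomal amino acid transporter, Xpr1 (0.04), a phosphate exporter, and Sos2 (0.04). Slc38a7 was at 87.5 and 88.1 TPM in untreated, 47.4 and 47.0 TPM in LPS and 83.3 and 78.9 TPM in Met + LPS cells. This likeness is a description over 6 libraries in 3 groups.

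The reads behind these values were recovered from the TPM table. The libraries held 25457016 to 30762754 reads, and each of the 10 genes rested on at least 2501 reads in every library. At least 96.1% of the 31-base words of each gene's exons were found in no other gene, and exons of Atp6v1e1 and Atp6v1h overlap with those of Slc25a18 and Rgs20 over 0.779% and 1.3% of their length.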

How the data were processed

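The authors aligned single-end poly-A reads to GRCm38 (annotation release 94) with STAR 2.6.1d, handled files with SAMtools 1.9 and counted reads per gene with featureCounts of Subread 1.6.3. The authors deposited TPM per gene and library for 54532 genes. How counts became TPM is not given in the sources used here. The authors tested counts with DESeq2, which was not used.

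The 12755 genes that reached 1 TPM in 2 or more libraries entered limma (version 3.58.1, R 4.3.3). The model was fitted to log2(TPM + 1) of all 6 libraries with a prior variance that follows the mean level, had 3 residual degrees of freedom, and p-values were adjusted over these genes by Benjamini-Hochberg. A call is an adjusted p under 0.01. Fold changes are on the log2(TPM + 1) scale. The script was tested on simulated data. Reads were recovered from TPM and GENCODE exon lengths, which matched 54495 genes. Between 96.4% and 96.6% of values came within 0.05 of a whole read, and served voom and depth only. The lengths left Tcirg1 off whole reads. Depth was 25457016 to 30762754 reads. Replicates of a group differed by more than counting noise (chi-square per degree of freedom 1.88 to 3.51).

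The members and lists were chosen with earlier results of these data known. Named were all members, up to 5 called genes per other list and comparison by size of change, genes below 1 TPM, the TFEB family, and 3 genes most like Atp6v0d2 (those for Tcirg1 are not reported here). Where a gene or value was named beyond this, it was chosen after its values were seen. Tables and permutation tests used Python 3.11.15 with numpy 2.4.6, pandas 2.3.3 and scipy 1.17.1, and plots matplotlib 3.10.9. Alternatives were other pseudocounts, filters and scalings, no trend, only the compared groups, voom on recovered reads, a replicate block, a threshold of 0.05, and each library left out.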

Additional observations from a re-analysis of the deposited data

How the results depend on the processing

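With 2 libraries per group and 3 residual degrees of freedom, calls near the threshold were easily lost, and TPM cannot show a change in total RNA per cell. Median-ratio scaling left 5 of the 10 genes called in LPS vs untreated (3 higher, 2 lower), and voom on recovered reads with TMM scaling left 5 (2 higher, 3 lower). For Met + LPS vs LPS, 3 were called without the filter and 3 without the trend, in place of 6, while voom on recovered reads called 7 and voom with TMM scaling 8. Of the 9 other V-ATPase genes, 5 were called in LPS vs untreated without the filter and 5 with TMM scaling (all higher), in place of 9, and 4 to 8 with a library left out. For Met + LPS vs LPS, 1 was called without the filter, with only the compared groups and without the trend, in place of 2, and 1 to 2 with a library left out. Against untreated cells, 4 were called in Met + LPS without the filter, in place of 7, and 3 to 7 with a library left out. Past the study's cut-off in Met + LPS vs LPS were 1 to 2 of the 10 genes with a library left out. A lone remaining library was assumed to vary like the other groups.

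Signs turned under scaling in the comparisons with untreated cells. In LPS vs untreated, the log2 fold changes under median-ratio and TMM scaling were 0.0997 and 0.0454 for Tcirg1, 0.0629 and 0.00873 for Atp6v0d1, 0.140 and 0.0861 for Atp6v1a, 0.447 and 0.400 for Atp6v1h, 0.110 and 0.0607 for Atp6v0a2, 0.17 and 0.12 for Atp6ap1, 0.17 and 0.12 for Atp6v0c, and 0.19 and 0.14 for Atp6v1g1. In Met + LPS vs untreated they were 0.47 and 0.43 for Tcirg1, 0.20 and 0.16 for Atp6v0d1, 0.41 and 0.37 for Atp6v0d2, 0.40 and 0.36 for Atp6v1a, 0.37 and 0.33 for Atp6v1d, 0.0587 and 0.0242 for Atp6v0a2, 0.16 and 0.12 for Atp6ap1, 0.23 and 0.20 for Atp6v1f, and 0.28 and 0.25 for Atp6v0c. Atp6v0a1 turned to 0.0233 there under median-ratio scaling. These shifts follow from the construction of the scalings, since both raise the groups given LPS relative to untreated cells. Atp6v1b2 ranged in Met + LPS vs LPS from -0.0017 to 0.0637 with a library left out.

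Deviations of libraries that share a letter were hardly correlated between groups (-0.0037 to 0.028). Whether the letters mark paired libraries cannot be told from this, since each group held only libraries A and B. With the letter as a replicate block, 9, 6 and 8 of the 10 genes were called in LPS vs untreated, Met + LPS vs LPS and Met + LPS vs untreated, against 9, 6 and 7 without it, the added gene being Atp6v0d2.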
